A study of Mus musculus with 2 samples.

Results

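Core and linker histone genes were followed in mESCs given CHIR99021 (CHIR) on top of LIF. CHIR blocks GSK3 and so turns on Wnt/β-catenin signaling, and LIF is a cytokine that acts through Stat3. Members were the identifiers of the longer deposited table whose names begin with Hist and a cluster number, H2af, H3f3 or H1f, which gave 72 of 30774. Of these, 59 carry Hist names and are called replication-dependent here, and 13 carry H2af, H3f3 or H1f names and are called replacement histones. The arrays held total RNA of B6 mESCs kept in serum medium, labelled as inner cell mass cells of an E3.5 embryo. Treatment for 12 h was with LIF on 1 array and with LIF/CHIR99021 on the other. The dose of CHIR on the array and the number of cultures behind each array are not given in the sources used here, and the paper's methods describe 46C mESCs and not B6 mESCs. Each condition had 1 array, so no difference below has a replicate check, the spread between cultures is unknown, and ratios are given without any p-value. The number of arrays limits the precision of every ratio.

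Core histones H2A, H2B, H3 and H4 form the protein spool of the nucleosome, and linker histone H1 binds the DNA that enters and leaves it. Most histone protein is made in S phase from Hist genes, which lie in clusters, have no introns and yield mRNAs that end in a stem-loop in place of a poly(A) tail. Replacement histones are made outside S phase as well, from genes outside the clusters, many of them with introns and polyadenylated mRNAs, and mark particular chromatin, such as H3.3 and H2A.Z at active promoters. Embryonic stem cells divide fast, with a short G1 phase and a large share of cells in S phase. How the labelling reaction was primed, which bears on mRNAs without a poly(A) tail, is not given in the sources used here.

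The promoters of these genes show the difference between the classes, and 64 of the 72 identifiers were matched to a RefSeq promoter window (GRCm38.p6, 250 bases before to 50 after the annotated start). One of them, Hist1h2be, had 2 windows, which gave 65 windows in all. The motifs searched on both strands were the TATA box (TATAAA), the CCAAT box (CCAAT), the octamer of H2B promoters that is bound by Oct1 (ATTTGCAT), the H1 box (AAACACA) and the motif of Tcf factors, through which β-catenin acts (CTTTG followed by AA, AT, TA or TT). Below are the 150 bases before the start of 7 genes, with every match in capitals. A CCAAT box on the other strand reads ATTGG and an octamer ATGCAAAT. Hist1h4k and H2afy had the lowest and the highest ratio of all members, Hist1h2bk and Hist1h1b show the elements of their class, Hist1h2ad has a Tcf motif that overlaps a CCAAT box, and H3f3b and H2afz are replacement genes.
Hist1h4k, chr13:21750554-21750703, minus strand: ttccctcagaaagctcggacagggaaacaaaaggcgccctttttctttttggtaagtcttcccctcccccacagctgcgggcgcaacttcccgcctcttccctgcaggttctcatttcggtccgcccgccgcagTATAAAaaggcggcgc
H2afy, chr13:56135551-56135700, minus strand: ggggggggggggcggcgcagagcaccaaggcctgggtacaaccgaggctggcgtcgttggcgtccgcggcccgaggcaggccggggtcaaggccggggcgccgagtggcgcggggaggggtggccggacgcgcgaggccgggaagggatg
Hist1h2bk, chr13:22035671-22035820, plus strand: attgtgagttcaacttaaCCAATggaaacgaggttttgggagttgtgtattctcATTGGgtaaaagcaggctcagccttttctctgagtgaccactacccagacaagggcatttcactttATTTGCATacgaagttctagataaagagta
Hist1h2ad, chr13:23574231-23574380, plus strand: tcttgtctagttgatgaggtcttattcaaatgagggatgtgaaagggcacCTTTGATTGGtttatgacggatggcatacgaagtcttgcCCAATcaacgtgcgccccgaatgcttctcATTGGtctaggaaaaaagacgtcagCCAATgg
Hist1h1b, chr13:21780626-21780775, minus strand: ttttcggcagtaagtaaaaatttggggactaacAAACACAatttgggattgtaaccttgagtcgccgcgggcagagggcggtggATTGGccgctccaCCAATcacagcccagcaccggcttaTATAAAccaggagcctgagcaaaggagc
H3f3b, chr11:116024505-116024654, minus strand: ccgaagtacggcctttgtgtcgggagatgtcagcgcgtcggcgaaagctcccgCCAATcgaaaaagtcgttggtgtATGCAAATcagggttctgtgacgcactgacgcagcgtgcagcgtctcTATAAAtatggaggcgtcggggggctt
H2afz, chr3:137864337-137864486, plus strand: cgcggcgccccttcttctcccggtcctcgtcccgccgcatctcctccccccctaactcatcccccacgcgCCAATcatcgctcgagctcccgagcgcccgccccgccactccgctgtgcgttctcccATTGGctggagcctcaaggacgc

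The stretch of H2afy held none of these motifs. Matches to each motif were counted at any position of a window and on either strand. TATAAA stood in 57.4% of the 54 replication-dependent windows and in 9.09% of the 11 replacement windows, against 13.6% of all 32851 promoter windows. Not all of these matches lay before the start in the direction of the gene. Those of Hist1h2ad, Hist1h2ah, Hist1h2ak, Hist1h4a and Hist2h2aa1 lay after the start. Those of Hist1h2ae, Hist1h2bf, Hist1h2bk and Hist1h2bn lay on the other strand. The share at the usual place of a TATA box was not counted. H3f3b held the only TATAAA match and the only octamer among the replacement windows. A CCAAT box was present in every H1, H2A, H2B and H3 window of the replication-dependent class, but in 3 of 11 H4 windows. It was also present in 7 of 11 replacement windows (63.6%), against 37.4% of all windows. The octamer was found in 7 of 13 H2B and 7 of 17 H2A windows and in 1.74% of all windows. The H1 box was found in 5 of 6 replication-dependent H1 windows and in 7.18% of all windows. The Tcf motif was found in 25.9% of replication-dependent and 9.09% of replacement windows, against 16.9% of all windows, and in none of 11 H4 windows. H2A and H2B windows that face each other overlap, so that some matches were counted for both genes of a pair.

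Signals are brightness on a linear scale, after background subtraction by the authors, and a detection p-value compares each with the negative controls of its array. At a detection p-value under 0.01, 45 of the 72 histone identifiers were detected on each array, 44 on both and 46 on at least 1, and 26 were detected on neither. Among the replication-dependent identifiers 38 of 59 were detected on at least 1 array, and among the replacement identifiers 8 of 13. Ratios of LIF/CHIR99021 over LIF were taken for these 46, and all of their signals lay above the minimum to which dim signals were raised. None of the 46 differed by 1.5-fold, a limit taken from the study, against 8.13% of 9615 detected identifiers (4.11% higher and 4.02% lower with CHIR), and the widest difference was 1.27-fold. The share passing that limit falls with brightness. It was 2.2% of the 3269 identifiers with a brighter signal of 1000 or more, where 26 histones lay, 7.34% of the 4521 between 100 and 1000, where 17 lay, and 20.7% of the 1825 under 100, where 3 lay. In RNA from whole cultures, fewer cells in S phase and less histone RNA per cell cannot be told apart.

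**Figure D1:**
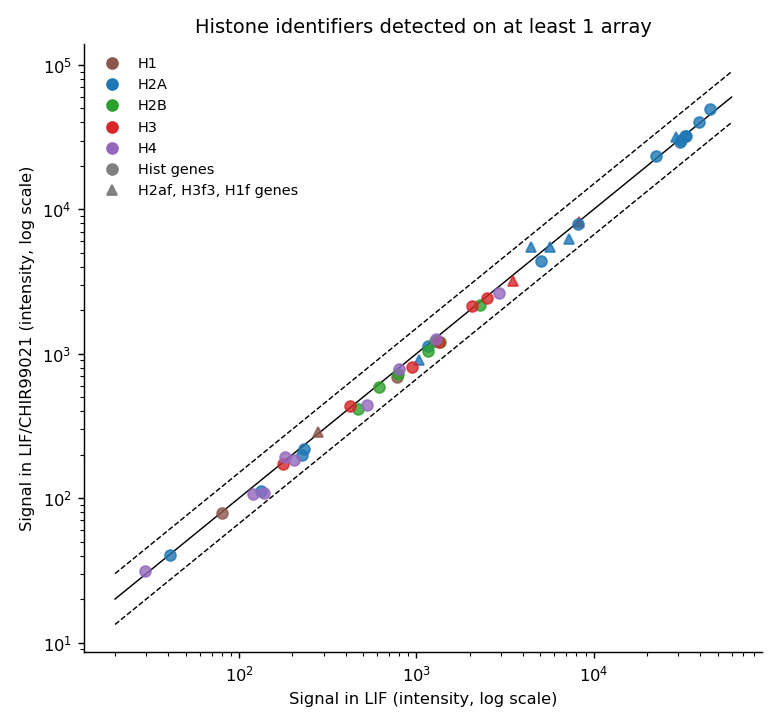
Signal of the 46 detected histone identifiers in LIF (x axis) and LIF/CHIR99021 (y axis), both as intensity on a log scale, with 1 point per identifier, colours for the histone and triangles for replacement genes. The solid line marks equal signals and the dashed lines a 1.5-fold difference, and all 46 points lie between the dashed lines.

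Small ratios below 0 on the log2 scale were more common than ratios above it. The log2 ratio was below 0 for 36 of the 46 histones (78.3%), against 49.8% of all detected identifiers. For replication-dependent histones 31 of 38 lay below 0, with a median log2 ratio of -0.07, and for replacement histones 5 of 8, with a median of -0.03, where the median of all detected identifiers was 0.00. The median ratio of replication-dependent histones was thus 0.956 of the LIF signal. Their summed signal, most of it from the brightest H2A genes, was 272254 in LIF and 272013 in LIF/CHIR99021. Of the 46 ratios, 40 lay within 0.2 of 0 on the log2 scale and 6 lay beyond it. Among the 17 histones between 100 and 1000, 14 lay below 0 with a median of -0.15, against 50.4% of all identifiers in that range. Among the 26 at 1000 or more, 20 lay below 0 with a median of -0.05, against 50.6%. Of the 3 under 100, 2 lay below 0, against 46.8%. At 20000 or more, 4 of 8 lay below 0, against 51%, and none of the 208 identifiers in that range passed 1.5-fold. Compression of ratios near the top of the scale was not tested.

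**Figure D2:**
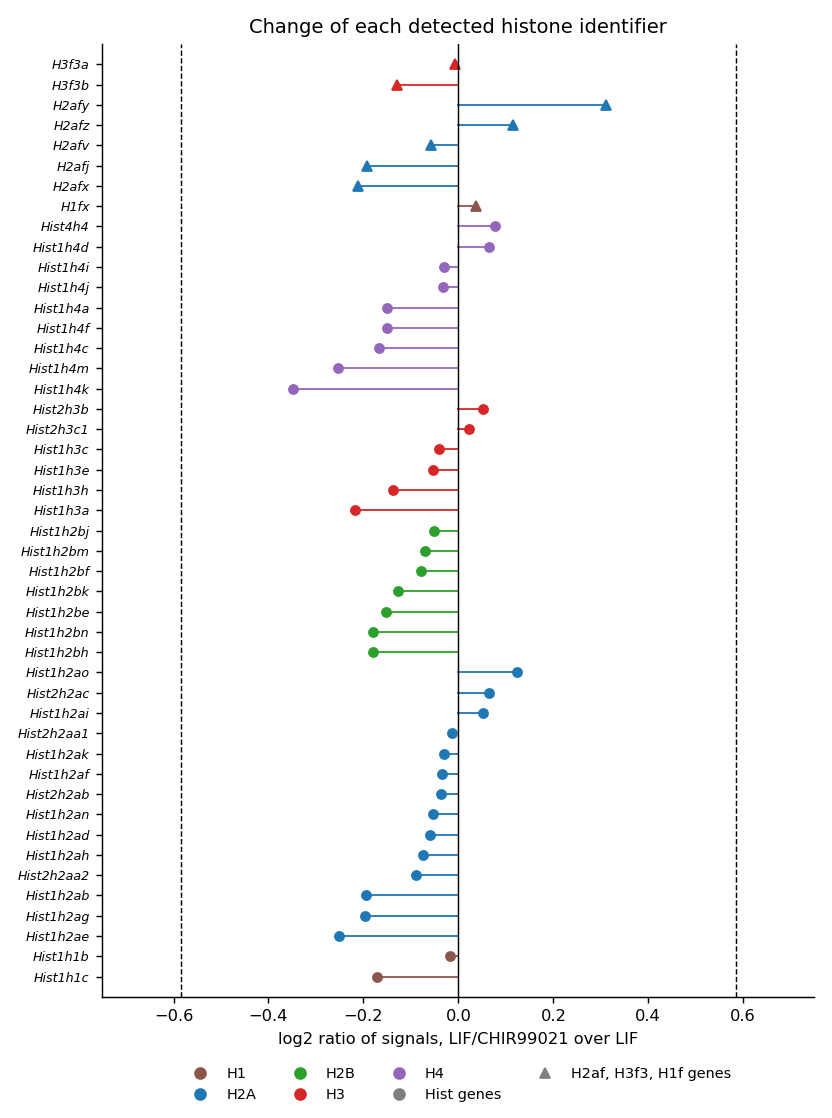
The log2 ratio of LIF/CHIR99021 over LIF (x axis) for each of the 46 detected histone identifiers (y axis), with colours for the histone, circles for replication-dependent and triangles for replacement genes. Dashed lines mark 1.5-fold, and ratios run from -0.35 for Hist1h4k to 0.31 for H2afy, with all 7 detected H2B genes below 0.

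H2A was the brightest class, and 7 of its 14 detected replication-dependent identifiers had a signal over 20000 on both arrays. Signals of different probes do not rank RNA amounts, and genes of 1 class have nearly the same coding sequence, so that several identifiers may report RNA of the same genes, which was not tested. Hist1h2ao was the brightest histone, with a signal of 45406 in LIF and 49497 in LIF/CHIR99021 (log2 ratio 0.12). Hist1h2ai followed with 39066 in LIF and 40486 in LIF/CHIR99021 (0.05). The arrays' brightest identifiers of any kind had 57706 in LIF and 57868 in LIF/CHIR99021, so these genes lay close to the top of the range. The other bright H2A genes of the Hist1 cluster had a slightly lower signal with CHIR. Hist1h2ad had 33353 in LIF and 32003 in LIF/CHIR99021, and Hist1h2ak had 32788 and 32115. Hist1h2af had 30901 and 30156, and Hist1h2ah had 30722 and 29156. Their log2 ratios lay between -0.08 and -0.03. Hist2h2ac, in the Hist2 cluster on chromosome 3, had 22449 in LIF and 23480.4 in LIF/CHIR99021 (0.06).

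The largest differences of the class were among the dimmer H2A genes, but others of these lay close to 0. Hist1h2an had 8200.3 in LIF and 7906 in LIF/CHIR99021 (log2 ratio -0.05), and Hist1h2ag had 5056 and 4412 (-0.20). Hist2h2ab had 1163 in LIF and 1134 in LIF/CHIR99021 (-0.04). Hist1h2ae, named here because it had the lowest ratio of the class, had 132.7 in LIF and 111.5 in LIF/CHIR99021 (-0.25). The remaining H2A identifiers, Hist1h2ab, Hist2h2aa1 and Hist2h2aa2, lay between -0.20 and -0.01. Over the 14 H2A genes the median log2 ratio was -0.04, and 11 were below 0.

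All 7 detected H2B genes had a lower signal with CHIR, with log2 ratios from -0.18 to -0.05 and a median of -0.13. Hist1h2bf, the brightest of them, had 2295 in LIF and 2174 in LIF/CHIR99021 (-0.08). Hist1h2bh had 1365 in LIF and 1205 in LIF/CHIR99021 (-0.18), and Hist1h2bj had 1276 and 1232 (-0.05). These genes differed by 1.13-fold at most. Hist1h2be had 1157 in LIF and 1041 in LIF/CHIR99021 (-0.15), but was detected only with CHIR, since its combined detection p-value was 0.0771 in LIF and 0.00737 in LIF/CHIR99021. Hist1h2bk, whose promoter with the octamer is printed above, had 787.5 in LIF and 720.6 in LIF/CHIR99021 (-0.13). Hist1h2bm had 613.7 and 584.5 (-0.07), and Hist1h2bn had 467.9 and 413.1 (-0.18). The other 8 of the 15 H2B identifiers had no ratio, among them Hist2h2be, which was bright but not detected and had a slightly higher signal with CHIR (581.8 and 613.4). Hist1h2bh, the lowest of the class, was at percentile 12.2 of the log2 ratios among the 3269 identifiers of its brightness.

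For H3, 6 replication-dependent identifiers were detected, with a median log2 ratio of -0.05 and 4 of 6 below 0. In mice, Hist1h3a and Hist1h3h encode H3.1 and the other detected H3 genes of the Hist clusters encode H3.2. Hist1h3a had the lowest ratio, with 944 in LIF and 811.2 in LIF/CHIR99021 (-0.22), and Hist1h3h had 1337 and 1215 (-0.14). Among the H3.2 genes, Hist1h3e had 2510.4 in LIF and 2420.3 in LIF/CHIR99021 (-0.05), and Hist2h3b had 2073 and 2150.0 (0.05). Hist2h3c1 had 425.2 in LIF and 431.7 in LIF/CHIR99021 (0.02), and was detected in LIF only. Hist1h3c, the dimmest, had a log2 ratio of -0.04. Both detected H3.1 genes had lower ratios than the 4 detected H3.2 genes, a difference seen after the values were known. H3 identifiers without a ratio are not part of this comparison. They were Hist1h3d, Hist1h3f and Hist1h3g, with plain log2 ratios of 0.00, -0.04 and 0.09. All of these lay above the ratios of both detected H3.1 genes, so any H3.1 gene among them would go against the difference.

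H4 showed the widest range of log2 ratios among the replication-dependent classes, and its genes all encode the same protein. Hist1h4k had the lowest ratio of all histones, with 137.6 in LIF and 108 in LIF/CHIR99021 (log2 ratio -0.35, or 1.27-fold lower). Among the 4521 identifiers of its brightness, 19.1% had a larger difference in either direction. Hist1h4m came next with 524.8 in LIF and 440.2 in LIF/CHIR99021 (-0.25). Hist1h4a, the brightest H4 gene, had 2934 in LIF and 2645 in LIF/CHIR99021 (-0.15). Hist1h4i had 1290.3 and 1263 (-0.03), and Hist1h4j had 802.8 and 784.4 (-0.03). The last 3 were lower with CHIR by 1.11-fold or less. Hist1h4c and Hist1h4f were at -0.17 and -0.15, Hist1h4d was at 0.06, and Hist4h4, a gene outside the clusters with signals of 29.6 and 31.2, was at 0.08. In all, 7 of 9 H4 genes lay below 0, with a median of -0.15.

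Linker histones were represented by few detected genes. Of 6 replication-dependent H1 identifiers, Hist1h1c (H1.2) had 780.2 in LIF and 693.1 in LIF/CHIR99021 (log2 ratio -0.17), and Hist1h1b (H1.5) had 80.3 and 79.4 (-0.02). Hist1h1a, Hist1h1d, Hist1h1e and the testis gene Hist1h1t were detected on neither array. Of the 4 identifiers with H1f names, H1fx had 278.9 in LIF and 286 in LIF/CHIR99021 (0.04). H1f0, known from differentiated and resting cells, H1fnt, known from spermatids, and H1foo, known from oocytes, had signals below 1 on both arrays and were not detected.

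Among the replacement H2A genes, H2afy had the highest ratio of any histone. It encodes macroH2A1, a variant with a large additional domain that is associated with silenced chromatin such as the inactive X chromosome. Its signal was 4420 in LIF and 5486 in LIF/CHIR99021, which is 1.24-fold higher (log2 ratio 0.31), and it moved from the 96.44th to the 97.17th percentile of its array. Of the 3269 identifiers of its brightness, 8.9% had a larger difference in either direction, so the value is not rare among bright identifiers. The other macroH2A genes, H2afy2 and H2afy3, were detected on neither array. H2afz, which encodes H2A.Z, had 29235 in LIF and 31652 in LIF/CHIR99021 (0.11), and H2afv, which encodes the second form of H2A.Z, had 5696 and 5470.0 (-0.06). H2afx encodes H2A.X, the variant that is phosphorylated at DNA breaks, and had 7243 in LIF and 6255 in LIF/CHIR99021 (-0.21). H2afj had 1041 and 911 (-0.19). Replacement H2A genes therefore lay on both sides of 0, with 2 above and 3 below.

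H3f3a and H3f3b encode the same protein, H3.3, which is deposited independently of replication. H3f3a had almost equal signals of 8261 in LIF and 8220 in LIF/CHIR99021 (log2 ratio -0.01). H3f3b had 3487 in LIF and 3189 in LIF/CHIR99021 (-0.13). Of both promoters, only that of H3f3b holds a TATA box and an octamer. Their ratios were at percentiles 48.4 (H3f3a) and 19.7 (H3f3b) among the identifiers of their brightness.

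**Figure D3:**
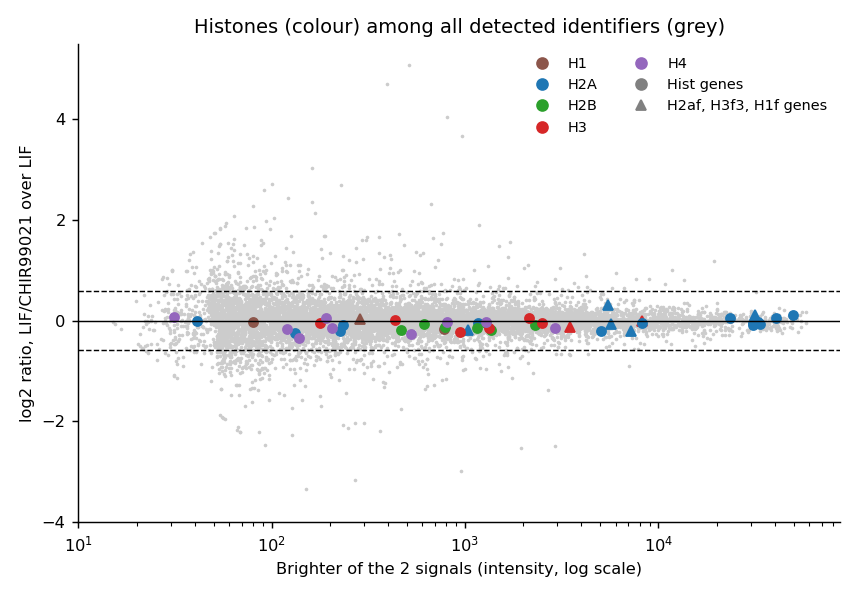
The log2 ratio of LIF/CHIR99021 over LIF (y axis) against the brighter of both signals (x axis, log scale) for 9615 detected identifiers in grey and the 46 detected histones in colour. Dashed lines mark 1.5-fold, which 782 grey identifiers and no histone passed, and the grey cloud narrows toward bright signals, where 26 histones had a signal of 1000 or more.

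The 26 histone identifiers detected on neither array fell into different kinds. Most had signals near the background, among them Hist1h2aa, Hist1h2ba and Hist1h1t, which are known from the testis, and the Hist3 genes Hist3h2a, Hist3h2ba and Hist3h2bb. Hist1h2ac, Hist1h2bb, Hist1h2bg, Hist2h2bb and Hist2h4 also had signals under 50 on both arrays. Others appeared to be measured by several probes, whose detection p-values are combined, and could be bright without passing. Hist1h3d had 1155 on both arrays (plain log2 ratio 0.00), Hist1h3f had 515.7 in LIF and 501 in LIF/CHIR99021 (-0.04), and Hist2h2be, given above, was at 0.08. H2afy2 had 11.2 in LIF and 6.35 in LIF/CHIR99021. Hist1h2bc, Hist1h3g, Hist1h4b and Hist1h4h, of the same kind, had signals between 48.9 and 87.4. When detection was judged by signal, 7 such identifiers entered, and all of their log2 ratios lay between -0.24 and 0.09.

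The Hist1 cluster on chromosome 13 holds 46 of the identifiers. In their order along the chromosome in the RefSeq annotation they form 2 blocks with a wide gap between them, the first from Hist1h2ai to Hist1h2bj with 16 identifiers and the second from Hist1h4h to Hist1h2aa with 30. All 16 of the first block and 15 of the second block were detected on at least 1 array. In the first block 14 of 16 ratios lay below 0, with a median log2 ratio of -0.06, and in the second 14 of 15, with a median of -0.15. Neighboring genes could differ, and Hist1h4k at -0.35 lies beside Hist1h4j at -0.03 and Hist1h2ak at -0.03. Of 6 H2A and H2B pairs with overlapping promoter windows on opposite strands, 4 had both genes detected, and all of these genes were below 0. Hist1h2ad and Hist1h2bf, which share the Tcf motif printed above, had -0.06 and -0.08. Hist1h2ak and Hist1h2bn had -0.03 and -0.18, Hist1h2ah and Hist1h2bk had -0.08 and -0.13, and Hist1h2ag and Hist1h2bj had -0.20 and -0.05.

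**Figure D4:**
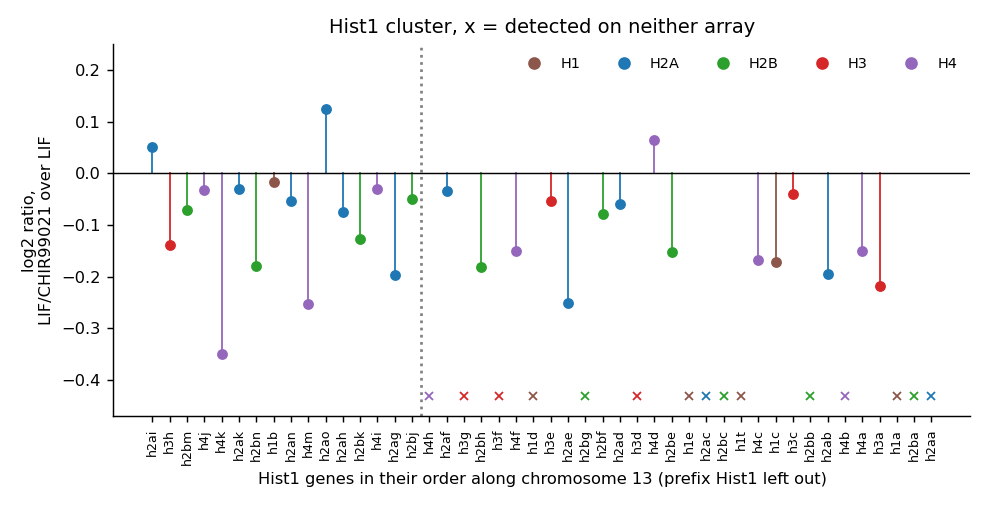
The log2 ratio of LIF/CHIR99021 over LIF (y axis) for the 46 identifiers of the Hist1 cluster in their order along chromosome 13 (x axis, spaced evenly), with colours for the histone. Crosses at the bottom mark identifiers detected on neither array, which have no ratio, and the dotted line separates the 16 identifiers of the first block from the 30 of the second, where all of the crosses lie.

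Genes that make, carry and deposit histones were listed to set beside the histones themselves. Over all detected identifiers 8.13% passed 1.5-fold and 49.8% lay below 0, and at signals of 1000 or more 2.2% passed. At such shares, lists of this size would hold few passing genes or none. Of 23 genes for histone mRNA transcription and processing, 15 were detected and none passed 1.5-fold, with a median log2 ratio of -0.04 and 8 below 0. The highest were Ncbp2, a subunit of the nuclear cap-binding complex (0.32), and Cpsf1 (0.18), and the lowest were Cpsf2 (-0.31) and Zfp473 (-0.26), which act in cleavage of the 3′ end. Slbp, the stem-loop binding protein, was detected on neither array, and the same held for Npat and Casp8ap2. Of 30 genes for chaperones and deposition, 18 were detected, none passed and the median was -0.05, with 13 below 0. Rbbp7 (0.35) and Ep400 (0.13) were highest, and Anp32e, a chaperone of H2A.Z (-0.13), and Ruvbl2 (-0.11) were lowest. The subunits of chromatin assembly factor Chaf1a and Chaf1b, which deposit H3 and H4 behind the replication fork, had -0.01 and -0.05. Of 28 S phase genes, 19 were detected, none passed and the median was -0.01, with 11 below 0. Lig1 (0.23) and Mcm5 (0.08) were highest and Ccne1 and Rpa2 were lowest, both at -0.27. Pcna (13.4 in LIF and 2.72 in LIF/CHIR99021) and Ccna2 (-7.22 and -9.26) were detected on neither array. Whether the probes of these genes, or those of Slbp, Npat and Casp8ap2, report their RNA was not tested. Cenpa, the centromeric H3 variant outside the naming rule, had 29131 in LIF and 24804 in LIF/CHIR99021 (-0.23), and Hils1, a spermatid linker histone, was not detected.

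**Figure D5:**
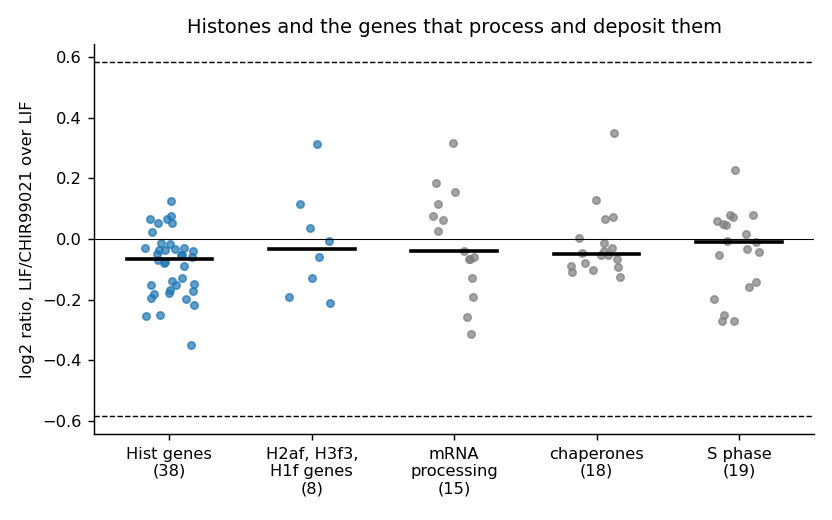
The log2 ratio of LIF/CHIR99021 over LIF (y axis) for detected histones of both kinds (blue) and for 3 lists of related genes (grey), with the number of identifiers under each name, 1 point per identifier and a bar at the median. Dashed lines mark 1.5-fold, which no point passes, and the medians lie between -0.07 and -0.01.

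The labels were checked on targets and markers. Axin2, a feedback target of β-catenin, had 314.1 in LIF and 1178 in LIF/CHIR99021 (log2 ratio 1.91), and Sp5 had 48.8, not detected, and 809.5. The paper picked Sp5 from genes that rose with CHIR in this microarray comparison, so Sp5 is not an independent check. Of 6 mESC markers 5 were detected on both arrays, with a median log2 ratio of 0.08. Pou5f1 was at -0.13, Dppa5 at -0.05, Zfp42 at 0.08, Esrrb at 0.36 and Nanog at 0.55, and Sox2 did not pass with signals of 441.2 and 400.2. Of 5 fibroblast and 3 primitive endoderm markers none was detected, with summed signals of 223.4 and 226.2 for the former and 47.2 and 34.9 for the latter. Of 2 epiblast markers Otx2 was detected and was lower with CHIR (947.4 and 119.7), and their summed signals were 991.3 and 131.8. Of 3 primitive streak markers T was detected with CHIR only (8.05 and 394.5), with summed signals of -4.18 and 419.7. The part of such cells in the histone ratios was not tested.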

How the data were processed

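RNA of B6 mESCs in LIF and in LIF/CHIR99021 was hybridized to Illumina mouse beadchips, 1 array per condition, and samples were grouped by their labels. The authors deposited background-subtracted signal intensity for 30774 gene identifiers and, for each signal, a detection p-value against the negative controls. Software and the method of normalization are not given in the sources used here. The longer table, used for all ratios, is labelled as not normalized. The shorter table of 11702 identifiers is labelled as normalized but held the same values.

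Python 3.11.15 with numpy 2.4.6, pandas 2.3.3 and matplotlib 3.10.9 was used. Log2 ratios were taken where either array had a detection p-value under 0.01, after raising signals under the lowest detected one (15.1 in LIF, 14.8 in LIF/CHIR99021). Detection p-values that were multiples of 1 over 936 were taken to mean 1 probe. Alternatives used limma 3.58.1 in R 4.3.3 for normexp. The calculation was tested on simulated data with planted changes larger than any seen among the histones, so that test does not bear on their small differences.

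Members and lists were chosen with earlier results of these data known. The rule for named genes took the 35 brightest detected members, the 2 highest and 2 lowest of each list, Cenpa, Hils1, Axin2 and Sp5. Further histones were named after their values were seen. All 72 members were matched to the RefSeq gene table, 65 by Entrez number and 7 by synonym. Chromosome and start positions from that table gave the order and the 2 blocks of the Hist1 cluster. Promoter coordinates are those of the RefSeq promoter table.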

Additional observations from a re-analysis of the deposited data

How the results depend on the processing

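No paired analysis was possible because single arrays leave no pairs to test. No histone passed 1.5-fold under any of the alternatives. These were detection on both arrays, detection p-values under 0.05, ratios without a minimum signal and a minimum from identifiers with 1 probe. Others were quantile normalization, scaling to equal medians, normexp, log2(signal + 16), a limit of 2-fold and the shorter table. Detection by signal was added after seeing the data. Several of these could not have added a passing histone. Detection on both arrays, the shorter table and ratios without a minimum used the same ratios for no more histones. The 2-fold limit is stricter, and the constant in log2(signal + 16) draws ratios toward 0. The normexp signals also had 16 added, which draws ratios the same way. The median log2 ratio of replication-dependent histones lay between -0.08 and -0.06 throughout, and that of replacement histones between -0.04 and -0.03. Of 46 histones, 44 kept the sign of their ratio. Hist1h2ak moved from -0.03 to 0.01 under quantile normalization, and Hist4h4 from 0.08 to -0.14 with the higher minimum, where both of its signals are raised to it. At a detection p-value under 0.05, 50 histones entered, of which Hist2h4 had the highest ratio at 0.45, and 1 gene of the processing list was at least 1.5-fold lower (Pou2f2, named after its values were seen), against 0 otherwise. Counts over all identifiers depend more on the choice. The 395 higher and 387 lower became 682 and 684 at the looser detection limit, 203 and 227 with detection on both arrays, 247 and 273 with the higher minimum, 271 and 258 with normexp, 275 and 311 with detection by signal, and 129 and 85 at 2-fold. Depth is not defined for arrays. Among identifiers under 100, where 3 of the 46 histones lay, 20.7% passed 1.5-fold.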

Other observations

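Predicted identifiers whose definitions name a histone lie outside the naming rule and were looked up after the values of the members were seen. LOC675899, described as similar to H2A.Z, had 442.1 in LIF and 651.8 in LIF/CHIR99021, a log2 ratio of 0.56 that exceeds every member's, whereas H2afz itself had 0.11. LOC100046770, described as similar to macroH2A1.2, had 2992 in LIF and 3334 in LIF/CHIR99021, with combined detection p-values of 0.0622 and 0.0177, and H2afy had a log2 ratio of 0.31. LOC100041230, described as similar to histone H4, had 698.9 and 585.5 (-0.26). LOC636952, described as similar to a histone family member, had 54 and 59.6 (0.14). The other 5 such identifiers were detected on neither array.

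Histones took 8 of the 194 identifiers with a signal of 20000 or more in LIF and 8 of the 201 in LIF/CHIR99021. Hist1h2ad and Hist1h2ag carry the same search key in the array annotation but had different signals, 33353 and 5056 in LIF, and Hist2h2bb and Hist2h2be share another, with 8.24 and 581.8 in LIF.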
